A study of Drosophila melanogaster with 6 samples.

Results

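Cytochrome P450 enzymes are heme-containing monooxygenases that insert an oxygen atom into small lipophilic molecules. In insects they make and inactivate the moulting steroid ecdysone, build cuticular hydrocarbons and clear plant toxins and insecticides, and they draw their electrons from NADPH-cytochrome P450 reductase in the endoplasmic reticulum or from ferredoxins in mitochondria. Insect P450 genes fall into 4 clans, CYP2, CYP3, CYP4 and mitochondrial, of which CYP3 and CYP4 hold most of the genes linked to detoxification. In Drosophila, many of them are known for expression in midgut, Malpighian tubule and fat body, while the ovary makes ecdysteroids in its follicle cells.

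The genes described here are the Drosophila melanogaster P450 genes whose name in the array tables was Cyp followed by a family number, a subfamily letter and a gene number. The rule found 81 genes of the 13690 with a signal, of which 36 belonged to the CYP3 clan, 32 to the CYP4 clan, 9 to the mitochondrial clan and 4 to the CYP2 clan. The 6 P450 genes of ecdysteroid synthesis that carry other names were read as a separate list. The samples were total ovary RNA on 6 Affymetrix tiling arrays, of which the labels assign 3 to uap56 and 3 to vasa. UAP56 is a helicase of mRNA processing and nuclear export, and Vasa is a helicase of the germline that takes part in the piRNA pathway. Both groups were raised alike on cornmeal food with wet yeast paste for the adults. The sources used here do not give the alleles, the strain, the age of the flies or the number of animals per sample. They do not say either whether replicates were separate dissections, so the spread behind each p-value may be technical. No array of other ovaries was analysed here. A difference is therefore one between uap56 and vasa, with no reference to unaltered ovaries.

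Values are intensities, summarised per transcript and normalized by the authors, and each gene was represented by its transcript of highest mean. The median over all genes lay between 124 and 133 on the 6 arrays and serves below as the array median. Different transcripts rest on different probes, so a position above or below the median describes the signal and not the number of mRNA molecules. The vas gene, which encodes Vasa, read 1698 ± 341 (SD, n = 3) on the uap56 arrays and 297 ± 75.1 on the vasa arrays, a log2 difference of 2.52 with an adjusted p of 0.00183 (0.0856 with the common variance prior described below). The gene of UAP56, Hel25E, read 1419 ± 326 and 1610.3 ± 192, a log2 difference of -0.20 with an adjusted p of 0.642. Without the alleles, these values do not check the uap56 label. Of the follicle cell markers, 8 of 8 lay above the median on all 6 arrays, and of the germline markers 7 of 8. Summed germline markers lay between 10871 and 13049 on the uap56 arrays and between 11052 and 13689 on the vasa arrays, and their median log2 difference, uap56 minus vasa throughout, was -0.48. The sums are made up mostly of the brightest markers, nos and osk, which differed in opposite directions. Of the 8, nos was called, higher in uap56 by 0.69 on the log2 scale with an adjusted p of 0.0171 (0.164 with the common prior). BicD had a difference of 0.24, and the other 6 lay between -0.65 and -0.27 without passing the threshold. Among these, osk, bam, aub and grk had every vasa array above every uap56 array, as did 10% of all genes. The part of germline RNA in the P450 values was not tested. Summed follicle cell markers lay between 68129 and 83569 and between 65627 and 75980, with 0 of 8 called. In bulk ovaries, fewer cells of a type and less RNA per cell cannot be told apart.

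Most P450 genes gave a low signal in ovaries. Of the 81, 12 lay above the array median on all 6 arrays, where 42.8% of all genes did. A further 58 lay below it on all 6 arrays, against 42.1% of all genes, and 11 were above it on some arrays. With all genes cut into 4 equal bins by mean signal, 34 P450 genes stood in the lowest bin, 33 in the second, 9 in the third and 5 in the highest. No P450 gene was at the floor of 1 on any array, and the lowest value was 4.22. Every value was under 100 for 51 of them. On the uap56 arrays 15 were above the median on all 3, against 45.2% of all genes, and on the vasa arrays 12, against 45.9%.

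**Figure D1:**
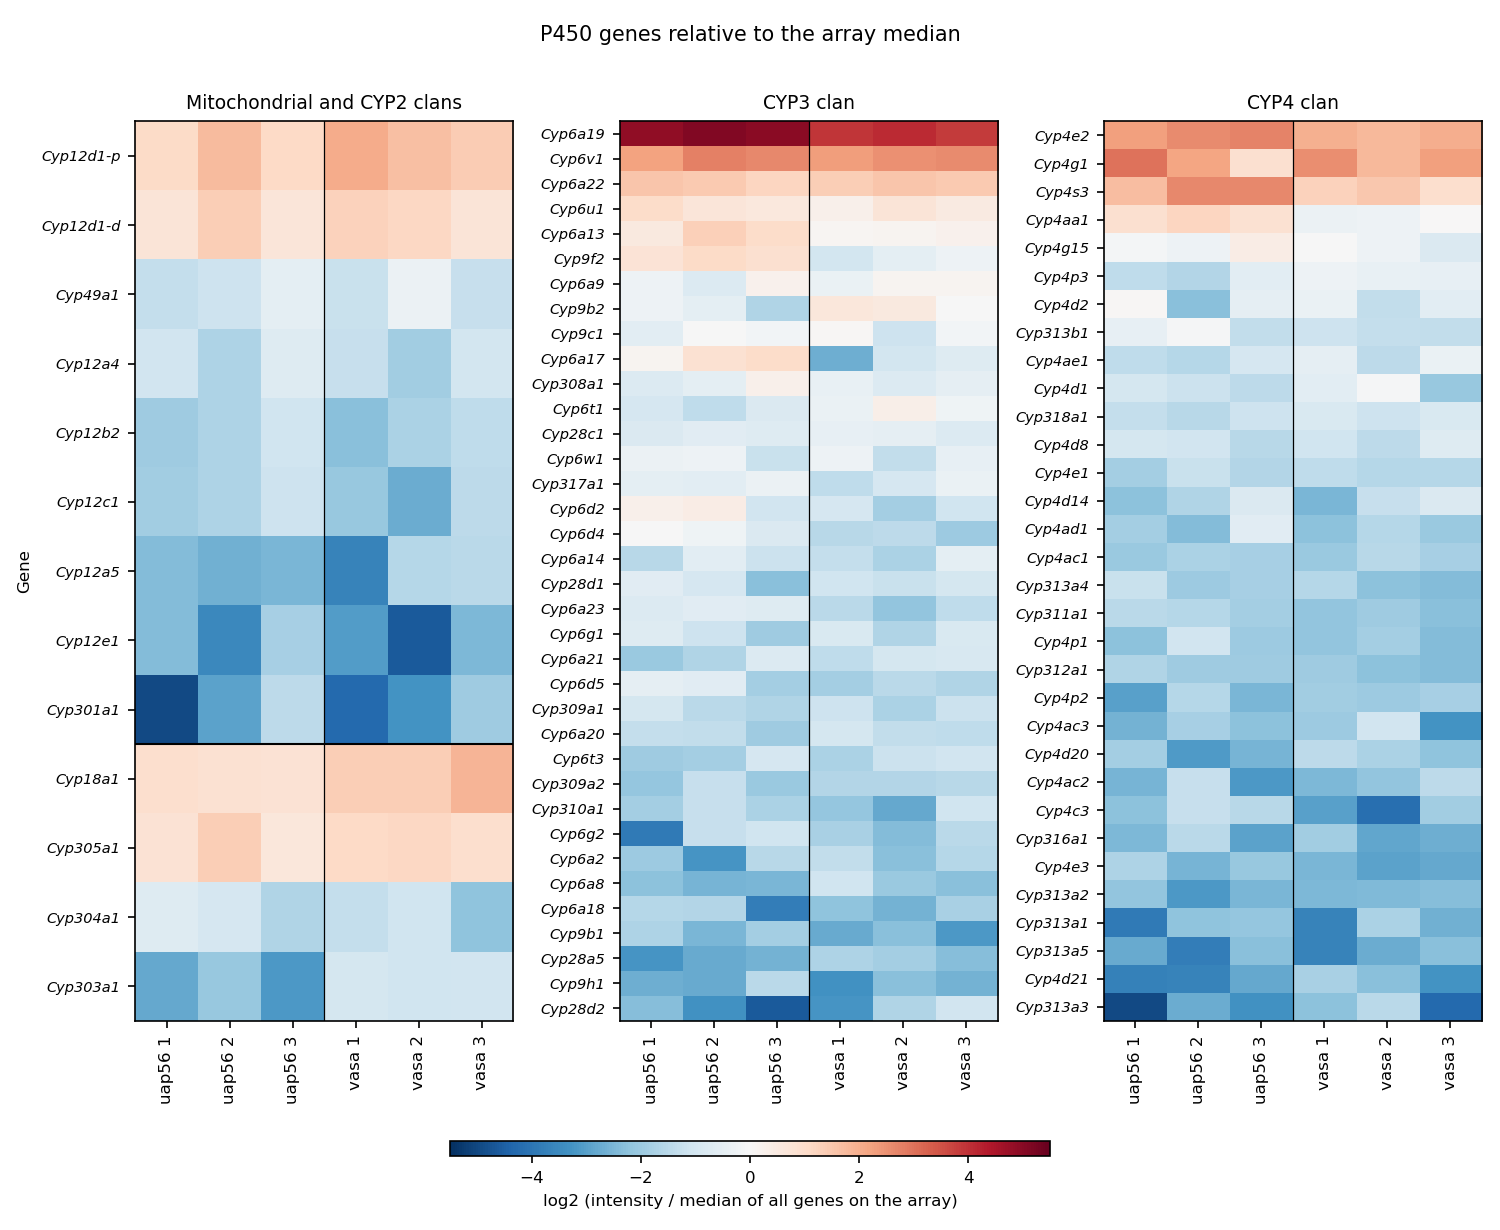
Signal of the 81 P450 genes on each of the 6 arrays, as log2 of the intensity over the median of all genes on that array, in panels by clan with genes ordered by mean signal. The horizontal line splits the 9 mitochondrial from the 4 CYP2 genes and the vertical lines split the groups. Red cells lie above the array median and blue below, and 12 genes are red throughout.

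In the CYP3 clan, 5 of 36 genes were above the median on all 6 arrays, 23 were below on all 6 and 8 were mixed. Cyp6a19 had the highest signal of the P450 genes on all 6 arrays, at a mean above that of 98.0% of genes. Its values are given with the comparison of the groups. Cyp6v1 read 623, 863 and 781 on the uap56 arrays and 644, 739 and 743 on the vasa arrays. The groups overlapped, and the log2 difference was 0.08 with a 95% interval from -0.29 to 0.45. Cyp6a22 read 387, 346 and 278 against 335, 371 and 337, again overlapping, with a log2 difference of -0.06 and an interval from -0.46 to 0.34. Cyp6u1 lay closer to the median, at 269, 201 and 185 against 159.9, 206 and 176. Cyp6a13 read 193, 309.8 and 248 on the uap56 arrays and 142, 141 and 145 on the vasa arrays, all 6 above the median.

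Some genes of this clan with known roles were dim, and they are named outside the rule. Cyp6g1, whose overexpression gives DDT resistance, read 80.2, 57.0 and 31.4 in uap56 and 73.6, 40.4 and 69.9 in vasa. Cyp6a2, also linked to DDT resistance, read between 13.5 and 42.5 in uap56 and between 25.9 and 51.6 in vasa. Both genes were below the median on all 6 arrays, and neither differed between the groups at the threshold (adjusted p of 0.882 and 0.693). Cyp6a20, known for its effect on male aggression, read between 32.1 and 53.1 in uap56 and between 47.6 and 68.3 in vasa. The 4 genes of family Cyp28 were below the median on every array, at 5.05 to 98.2.

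In the CYP4 clan, 3 of 32 genes were above the median on all 6 arrays, 26 below on all 6 and 3 mixed. Cyp4e2 read 641, 769 and 824 on the uap56 arrays and 516, 442 and 492 on the vasa arrays. Cyp4s3 read 424, 799 and 781 against 321, 358 and 235. In both genes every uap56 array lay above every vasa array. The third, Cyp4g1, the oxidative decarbonylase that completes cuticular hydrocarbons in oenocytes, varied most among the P450 genes above the median and is described below. The 6 genes of family Cyp313 were below the median on every array, with values from 4.22 to 121. Of the 6 genes of subfamily Cyp4d, 5 were below on all arrays and Cyp4d2 was above on 1. Cyp4d21, a gene known for male mating behaviour and named outside the rule, read between 9.97 and 17.5 in uap56 and between 12.9 and 38.2 in vasa.

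Among the 9 mitochondrial P450 genes, both of those above the median were the neighbouring duplicates Cyp12d1-p and Cyp12d1-d, which respond to xenobiotics such as caffeine and phenobarbital. Cyp12d1-p read 277, 420.4 and 263 in uap56 and 539, 405 and 327 in vasa. Cyp12d1-d read 214, 318 and 196 against 322, 279 and 201. The groups overlapped in both, and the log2 differences were -0.41 (interval -0.96 to 0.15) and -0.15 (interval -0.72 to 0.43). The copies are nearly identical in sequence, so signal cannot be divided between them with certainty. The other 7 mitochondrial genes were below the median on every array. One of them, Cyp301a1, acts in the adult cuticle and is named outside the rule. It ran from 4.22 to 46.1 in uap56 and from 6.76 to 32.2 in vasa.

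In the CYP2 clan, 2 of 4 genes were above the median on all arrays. Cyp18a1, the hydroxylase that inactivates ecdysteroids, read 255, 227 and 215 in uap56 and 337, 322 and 451 in vasa. Every vasa array was above every uap56 array. This was a log2 difference of -0.66 ± 0.19 (SE), which did not pass (adjusted p of 0.0987). Cyp305a1 read 229, 323 and 192 in uap56 and 281, 279 and 237 in vasa, overlapping. Cyp303a1, needed for sensory bristles, was below the median throughout, at 18.8, 29.6 and 13.8 in uap56 and 67.8, 59.1 and 60.3 in vasa. It is named after its values were seen, since its groups did not overlap. Its log2 difference was -1.66 ± 0.44, with an adjusted p of 0.0733, which did not pass either.

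**Figure D2:**
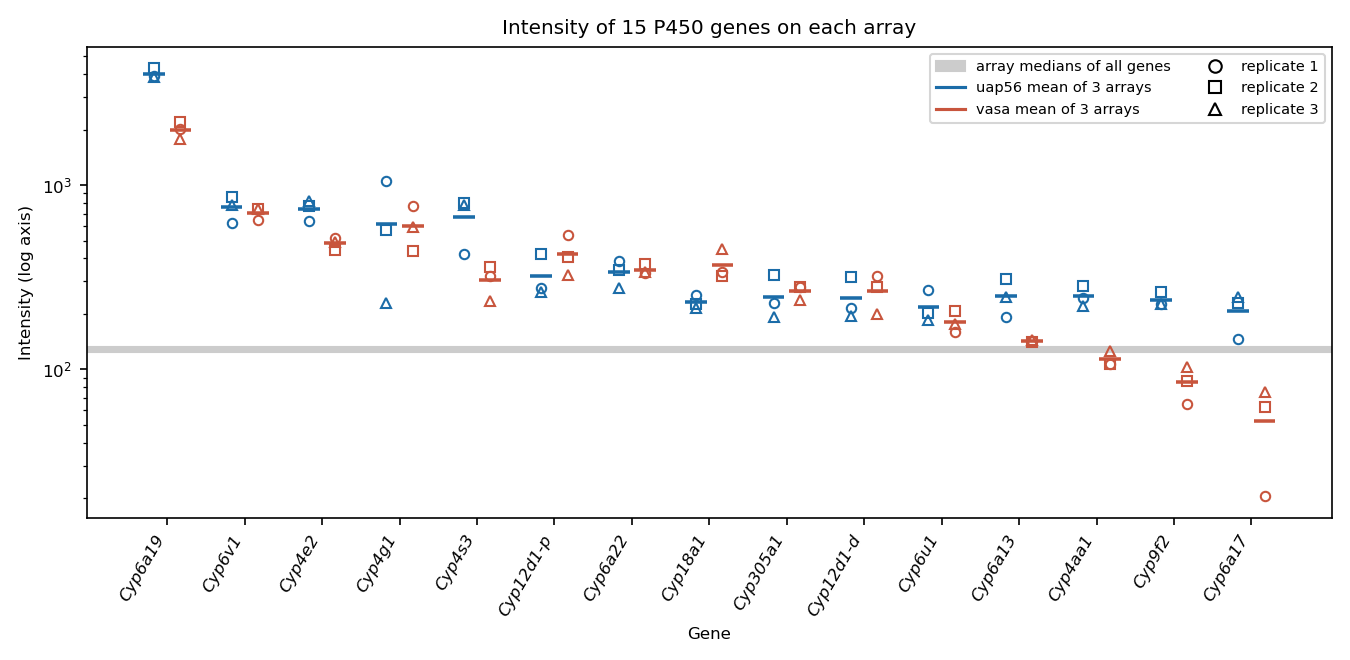
Intensity on a log axis of the 15 P450 genes named by rule, for each array of uap56 (blue) and vasa (red), with bars at the mean of 3 arrays and a grey band over the 6 array medians. The groups do not overlap for Cyp6a19, Cyp9f2, Cyp4aa1, Cyp6a17, Cyp4s3, Cyp4e2, Cyp6a13 and Cyp18a1.

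Between the groups, 4 of the 81 P450 genes were called, all higher in uap56, by limma with a variance prior that follows intensity, at an adjusted p under 0.05. Of all 13690 genes 3.83% were called, 2.48% higher in uap56 and 1.35% higher in vasa. The share of P450 genes called and higher in uap56 was 4.94%, against the 2.48% of all genes, and it rests on 4 genes. This background is not matched for signal. Each of the 4 bins of genes by signal held 3422 or 3423 genes. From the lowest bin to the highest, 5, 34, 202 and 284 genes were called. For the P450 genes these counts were 0 of 34, 1 of 33, 2 of 9 and 1 of 5. With a prior common to all intensities, 0 P450 genes and 2 genes in all (0.0146%) were called, while 15 P450 genes had an unadjusted p under 0.05 in that fit (15.3% of all genes) and 15 in the fit with the trend (18.2%). Of the latter, 10 were higher in uap56 (10.8% of all genes) and 5 higher in vasa (7.38%). The trend was chosen knowing that spread falls with intensity here. The median SD on the log2 scale was 0.82 in the lowest of the 4 bins of genes by signal and 0.21 in the highest. The median difference over the P450 genes was -0.06 on the log2 scale, against 0.02 over all genes, and 37 of 81 were above 0 (51.4% of all genes).

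Cyp6a19 read 3885, 4291 and 3858 on the uap56 arrays and 2002, 2210.0 and 1777 on the vasa arrays. All 3 uap56 arrays were well above the vasa arrays, and the ranges within each group were narrow beside the gap. The means were 4011 ± 243 and 1996 ± 216 (SD, n = 3), a log2 difference of 1.01 ± 0.13 (SE, interval 0.72 to 1.30) with an adjusted p of 0.00735. The call held in each of 6 fits that left out 1 array. It was lost under the common prior, and over all alternatives the adjusted p ran from 0.00326 to 0.131.

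The other 3 called genes crossed the array median between the groups. Cyp9f2 read 226, 264 and 227 on the uap56 arrays, all above the median, and 64.8, 87.0 and 103 on the vasa arrays, all below. The log2 difference was 1.51 ± 0.25 with an interval from 0.96 to 2.07 and an adjusted p of 0.0149. Cyp4aa1 read 245, 285 and 222 against 107, 106 and 126, with 1 vasa array just above the median. Its groups did not overlap, and the log2 difference was 1.14 ± 0.21 with an interval from 0.67 to 1.62 and an adjusted p of 0.0227. Cyp6a17, known for setting temperature preference, read 147, 228 and 247 against 20.5, 62.7 and 75.1. All uap56 arrays were above the median and all vasa arrays below, and the log2 difference was 2.14 ± 0.48 with an interval from 1.07 to 3.22 and an adjusted p of 0.0422.

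These 3 calls depended on single arrays as well as on the prior. Cyp9f2 was not called without uap56 replicate 2 (adjusted p of 0.0700) or vasa replicate 2 (0.0555), and over all alternatives its adjusted p ran from 0.00828 to 0.124. Cyp4aa1 was not called without uap56 replicate 2 (0.0950) or vasa replicate 1 (0.0529), 2 (0.0888) or 3 (0.0675), with a range from 0.0146 to 0.128. Cyp6a17 was not called without uap56 replicate 1 (0.0502), 2 (0.139) or 3 (0.131), or vasa replicate 2 (0.0840) or 3 (0.0615), with a range from 0.0251 to 0.255. The log2 differences themselves stayed between 1.33 and 1.67 for Cyp9f2, between 1.04 and 1.23 for Cyp4aa1 and between 1.56 and 2.50 for Cyp6a17 over all alternatives.

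**Figure D3:**
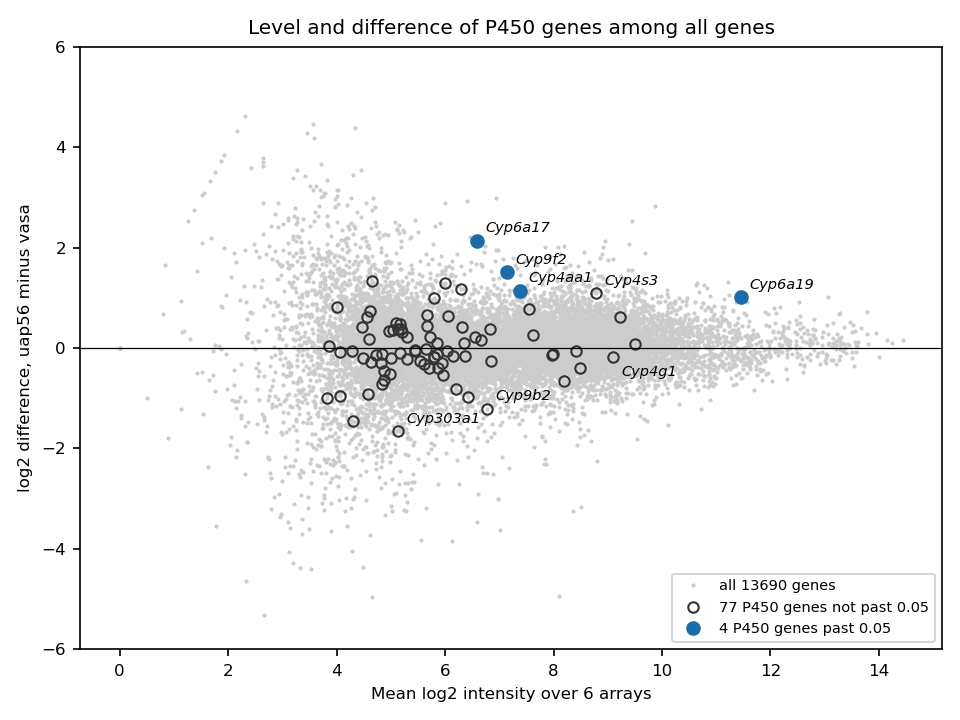
Log2 difference between uap56 and vasa against mean log2 intensity for all 13690 genes (grey) and the 81 P450 genes, with the 4 called genes marked. The spread of the differences narrows as the signal grows. The vertical axis stops at 6 on either side and 1 gene lies beyond it.

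The groups did not overlap for 17 P450 genes (23.5% of all genes), 10 of them higher in uap56 (13.5%) and 7 higher in vasa (10%). The share, 21% of the P450 genes, was near that of all genes. For 8 of the 17 the difference was also at least 2-fold. These were 9.88% of the P450 genes, against 5.08% of all genes. Of the 13 that were not called, 4 lay above the median on all arrays. Cyp4s3, with values given above, had a log2 difference of 1.10 ± 0.27 and an adjusted p of 0.0595, and it was called without uap56 replicate 1 (0.0132). Over all alternatives its adjusted p ran from 0.0132 to 0.281. Cyp4e2 had a log2 difference of 0.62 ± 0.16 and an adjusted p of 0.0661, and Cyp6a13 of 0.78 ± 0.22 with an adjusted p of 0.0933. Cyp18a1 was the only one of these 4 with the higher values in vasa.

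The other non-overlapping genes stood below the median on most or all arrays, and they are named after their values were seen. Cyp6d4 read 131, 109 and 70.5 in uap56 and 45.4, 47.3 and 31.1 in vasa, which gave 1.30 ± 0.36 on the log2 scale (adjusted p of 0.0816). The other genes of its subfamily, Cyp6d2 and Cyp6d5, had overlapping groups, with log2 differences of 1.17 and 0.66 and adjusted p of 0.213 and 0.487. Cyp9b2 read 110.5, 87.7 and 38.8 in uap56 and 206, 187 and 121 in vasa, so that only 2 vasa arrays passed the median. Its log2 difference was -1.21 ± 0.41 with an adjusted p of 0.150. Cyp6t1 read 69.1, 47.9 and 70.6 against 104, 158 and 107, a difference of -0.97 ± 0.31 with an adjusted p of 0.127. Besides Cyp303a1, described above, the rest were Cyp6a23, Cyp4p3, Cyp318a1, Cyp311a1 and Cyp28a5, the last 5 with adjusted p between 0.154 and 0.572. At this number of arrays and this brightness, the SE of the log2 difference had a median of 0.45 over the 67 P450 genes below the gene median by mean signal, against 0.22 over the 14 above it.

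P450 genes in insects often sit in tandem clusters. In gene order, 44 of the 81 lay next to another or with at most a single gene between, in 16 runs. Arm 2R held 34 of the 81, or 42.0%, against 19.7% of all genes. The longest run, on 2R, held 9 genes in the order Cyp6a22, Cyp6a17, Cyp6a23, Cyp6a19, Cyp6a9, Cyp6a20, Cyp6a21, Cyp6a8 and Cyp317a1. Both called genes of family Cyp6 were in it, with Cyp6a23 between them. Cyp6a23 read 78.5, 81.3 and 76.8 in uap56 and 46.8, 28.4 and 46.7 in vasa, without overlap, a log2 difference of 1.00 ± 0.34 with an adjusted p of 0.154. The groups overlapped for the other 6 genes of the run. Their log2 differences lay on both sides of 0, at -0.06 for Cyp6a22, -0.26 for Cyp6a9, -0.32 for Cyp6a20, -0.40 for Cyp6a21, -0.63 for Cyp6a8 and 0.43 for Cyp317a1.

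**Figure D4:**
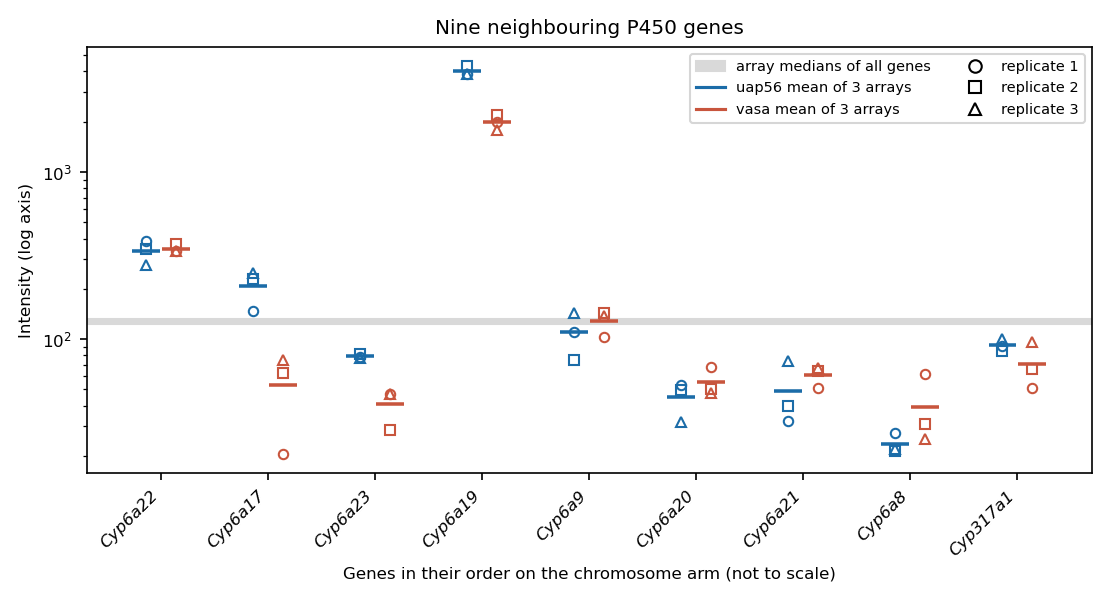
Intensity on a log axis of the 9 neighbouring P450 genes on 2R, in gene order and not to scale, for each array of uap56 (blue) and vasa (red) with bars at the mean of 3 arrays and a grey band over the 6 array medians. Cyp6a17, Cyp6a23 and Cyp6a19 have every uap56 array above every vasa array.

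The genes that flank this run did not pass the threshold, with log2 differences of 0.38 for Pcf11 (adjusted p of 0.274) and 0.01 for Kank (0.993). Some spans overlap in the annotation used for gene order, and the sources used here do not give the probes behind each transcript. Cyp6a19 overlaps Cyp6a9, which read 109.7 ± 34.4 in uap56 and 128 ± 21.7 in vasa. Cyp4aa1, also on 2R, overlaps COX6AL, which read 57.7 ± 12.1 against 18.4 ± 6.29, a log2 difference of 1.69 with an adjusted p of 0.0874. Its neighbour on the other side, CG8299, differed by 1.08 with an adjusted p of 0.237. The part of an overlapping neighbour in the signal of Cyp4aa1 was not tested. Cyp9f2, on 3R, overlapped neither neighbour, and these had log2 differences of 0.00 for DNAlig3 and -0.15 for CG5167. Over all 16 runs, of which 10 held 2 genes and 5 held 3, the differences had 1 sign throughout in 8. No such count was made over other neighbouring genes, so this does not show whether neighbouring P450 genes differ together.

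Cyp4g1 read 1045, 569.6 and 228 on the uap56 arrays and 773, 439 and 591 on the vasa arrays. The groups overlapped, and the log2 difference was -0.19 ± 0.52 with an interval from -1.40 to 1.03, which allows more than a 2-fold difference either way. Without uap56 replicate 3 the difference was 0.40 and without vasa replicate 1 it was 0.01. Among fat body markers, apolpp, the lipophorin precursor, and Tsf1, a transferrin, had their arrays in the same order in both groups, as did 4.01% of all genes. The first read 386, 281 and 115 in uap56 and 832, 198 and 419 in vasa, and the second 285, 169.6 and 128 and 226, 127 and 141. The other 2 fat body markers did not share the order, nor did any of 3 oenocyte markers, all of which were below the median on every array. Summed over each list, fat body markers lay between 434 and 873 in uap56 and between 537 and 1508 in vasa, and oenocyte markers between 143 and 212 and between 161 and 205. Outside the fat body list, Jon25Bi of the midgut, elav of neurons, aub of the germline and br of follicle cells also had it. So did Cyt-b5-r of the electron partners and gce of the regulators, lists described below. Of the other 80 P450 genes, 3 shared the order, namely Cyp309a1, Cyp6g1 and Cyp6w1. The part of RNA from any of these cell types in the values was not tested.

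Markers of other tissues that dissected ovaries can carry were measured too, and 0 genes of these lists were called. Midgut markers, 4 in number, summed to between 358 and 553 in uap56 and between 268 and 399 in vasa, and 3 Malpighian tubule markers to between 107 and 149 and between 139 and 261. The midgut markers all had differences above 0, from 0.09 to 0.72 on the log2 scale with a median of 0.40, and the tubule markers all had differences below 0, with a median of -0.37. The lowest adjusted p in these lists were 0.399 and 0.393. No marker of either list was above the median on all arrays. Muscle markers, 5 of 6 of which were above the median throughout, summed to between 6137 and 7689 and between 6296 and 7190. Most of each sum was bt, at 3604 to 4820 in uap56 and 3807 to 5378 in vasa, so the sums say little of the other muscle markers. Neuron markers, 4 in number, summed to between 327 and 433 and between 318 and 499.9, and 4 hemocyte markers to between 240.1 and 280.5 and between 217 and 364. The ranges of the groups overlapped in every list, and their part in the P450 values was not tested.

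Of the 6 P450 genes of ecdysteroid synthesis listed here under other names, 0 were called. Their median log2 difference was 0.06, and 5 of 6 were below the array median on all arrays. Shadow, sad, which hydroxylates the steroid in mitochondria, read 146, 147 and 141 in uap56 and 138, 109 and 127 in vasa, with 1 vasa array below the median. Phantom, phm, read 98.7, 123 and 111 against 116, 92.1 and 62.4, and spook, spo, read 69.7, 89.7 and 46.1 against 116, 97.1 and 96.3. The groups did not overlap for sad and spo (23.5% of all genes), in opposite directions, and the adjusted p were 0.660 and 0.342. The remaining genes, dib, shd and spok, read between 11.6 and 103 across the 6 arrays.

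The electron partners gave far more signal, with 5 of 6 above the median on all arrays, and 0 of 6 called. Cpr, the reductase that feeds microsomal P450 enzymes, read 1378, 1165 and 824 in uap56 and 855, 933 and 994 in vasa. Cyt-b5, the cytochrome that can pass a second electron, read 1698, 2206 and 1675 against 2055, 1842 and 2049. Both overlapped between the groups, with log2 differences of 0.25 (adjusted p of 0.562) and -0.10 (0.780). On the mitochondrial side, the ferredoxin Fdx2 read 493, 507 and 361 against 450.2, 425 and 478, overlapping. The ferredoxin reductase dare, named after its values were seen, read 329, 273 and 245 against 213, 171 and 141. Its groups did not overlap, and the log2 difference was 0.70 ± 0.22 with an adjusted p of 0.126.

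**Figure D5:**
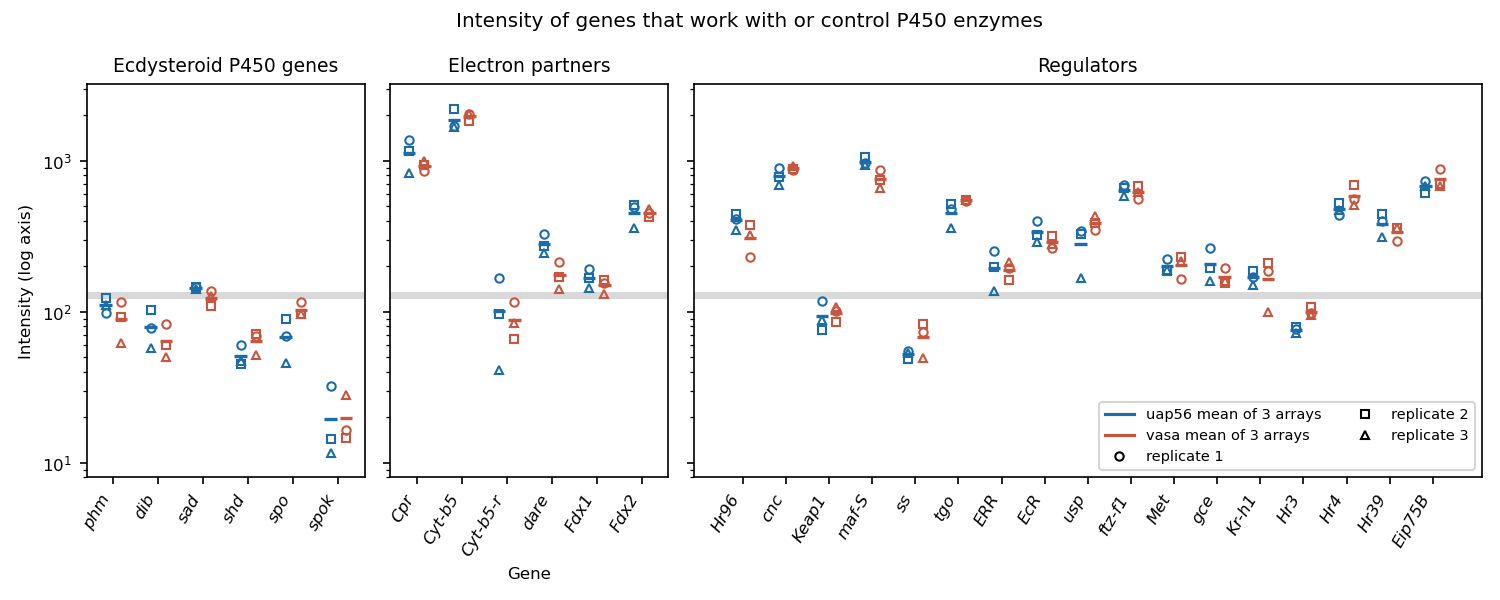
Intensity on a log axis of the 6 ecdysteroid P450 genes with other names, 6 electron partners and 17 regulators, for each array of uap56 (blue) and vasa (red), with bars at the mean of 3 arrays and a grey band over the 6 array medians. Of the electron partners 5 and of the regulators 13 lie above the array's own median on all 6 arrays.

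Genes that control P450 genes were mostly above the median as well, 13 of 17 on all arrays, and 0 of 17 were called, with a median log2 difference of -0.02. The list held xenobiotic regulators, ecdysone and juvenile hormone receptors and nuclear receptors of the ecdysone response. The transcription factor cnc, which drives detoxification genes with the small Maf protein maf-S, read 896, 785 and 692 in uap56 and 871, 876 and 924 in vasa. For maf-S the values were 962, 1057 and 932 against 866, 751 and 656. The groups did not overlap for maf-S, and its log2 difference was 0.38 with an adjusted p of 0.221. They did not overlap either for usp, the partner of the ecdysone receptor, Hr3 and tgo, which are named after their values were seen. These genes had higher values in vasa, at -0.54, -0.40 and -0.29 with adjusted p of 0.346, 0.470 and 0.431. Of all genes, 23.5% had groups that did not overlap. Keap1, the inhibitor of cnc, named outside the rule, was below the median on all arrays, at 118, 75.9 and 88.2 against 102, 85.9 and 108. Eip75B, a nuclear receptor induced by ecdysone, read 736, 612 and 682 against 884, 702 and 686, overlapping.

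Pairs of arrays were compared over the P450 genes and over all genes. Across the 81 genes, Pearson's r of log2 values was 0.825 to 0.886 between arrays of a group and 0.762 to 0.851 between arrays of different groups. Across all 13690 genes it was 0.874 to 0.900 and 0.863 to 0.881. These are correlations across genes, which share arrays and are not independent replicates. The values within uap56 spanned more than 2-fold for 29 P450 genes, or 35.8%, against 30.1% of all genes, and within vasa for 24, or 29.6%, against 24.7%. The array of uap56 replicate 3 was the lowest of its group for 32 P450 genes and for 45.6% of all genes.

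Of the 81 genes, 10 had more than 1 transcript with a signal. The differences of the transcripts had the same sign in 9 of them. In Cyp49a1, a mitochondrial P450 below the median, they lay at -0.05 and 0.05 at the extremes of its 3 transcripts. The transcripts differed by at most 2.26-fold on an array in Cyp49a1 and 1.80-fold in Cyp4d1. The transcripts of Cyp9f2, which was called, had identical values, so they are not 2 measurements.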

How the data were processed

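Per the labels' protocols, ovary RNA was extracted with a Qiagen kit, biotin-labelled and hybridized to Affymetrix tiling arrays. The authors summarised and normalized the intensity of each transcript before deposit, per the labels, and the values are linear. The sources used here do not state the normalization, the genome build or the probes. The transposon tables were not used.

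Each RefSeq table held 21158 transcripts. The 393 at 0 on every array were left out. Names came from a table of RefSeq accessions on Release 6 of the fly genome, used for names, arms and gene order (19234 transcripts matched by accession and 1314 by name, and 610 kept the file's name). Each gene was represented by its transcript of highest mean, which left 13690 genes. The 81 P450 genes came from 93 transcripts, 1 of them at 0.

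Log2 intensities, with no pseudocount, were fitted with limma 3.58.1 in R 4.3.3 (lmFit, then eBayes with an intensity trend and the robust option, two-sided), with Benjamini-Hochberg adjustment over all genes. SE and 95% intervals are from this fit, and groups do not overlap where every array of one lies above every array of the other. The fit was tested on simulated data. For arrays no depth applies, and their number limits the precision. The members, the lists and the trend were chosen with earlier results of these data known. The genes named are the P450 genes called by either prior, the 12 with the highest mean, those that do not overlap, differ at least 2-fold and lie above the median in the higher group, and the called and up to 3 brightest genes of the other lists. Exceptions are marked. A search for motifs in promoters and proteins was planned and not run. The alternatives were other variance priors, quantile normalization, centring on the median, a block by replicate number, fits without each array, a filter at the 25th percentile, a pseudocount of 16, other rules for transcripts and gene names, and a threshold of 0.01 or a minimum of 1.5-fold.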

Additional observations from a re-analysis of the deposited data

How the results depend on the processing

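The count of P450 genes called was 4 of 81, and it fell to 0 with a common variance prior, with the robust option alone and with a variance per gene alone, where 2, 2 and 3 of all genes were called in place of 525. At a threshold of 0.01, 57 genes and 1 P450 gene, Cyp6a19, were called. Leaving out 1 array gave 70 to 509 genes, 1 to 4 P450 genes and a median P450 difference from -0.030 to 0.074 on the log2 scale, against -0.06 with all 6. With every transcript on its own 1056 were called. The trend alone called 3 P450 genes and lost Cyp6a17 (adjusted p of 0.0605), and a filter at the 25th percentile called 6, adding Cyp4e2 (0.0459) and Cyp4s3 (0.0355). A pseudocount of 16 and every transcript on its own each called 5, adding Cyp4s3 (0.0491 and 0.0456), and the same 4 were called after quantile normalization, after centring, with the mean over transcripts, with gene names as in the files and with a minimum of 1.5-fold. Replicate numbers were not taken to pair the arrays, since deviations of same-numbered arrays correlated at 2.88e-05, -0.000917 and -0.0281 over all genes. Over the 81 P450 genes they correlated at 0.250, 0.0953 and 0.135, and each array correlated best with its own number. For vasa replicate 2 the gap was small, at 0.0953 against 0.086 with uap56 replicate 3. Deviations from a group mean are not independent of each other, so this order cannot decide whether the arrays are paired. The labels give no pairing. With the replicate number as a block, 226 genes and 3 P450 genes were called, without Cyp4aa1 (0.0605). Against the 75th percentile of genes in place of the median, 4 P450 genes were above on all uap56 arrays, 4 on all vasa arrays and 3 on all 6. Among the 15 P450 genes named by rule, 5 that were not called changed sign when 1 array was left out, with a range from -0.019 to 0.22 for Cyp6v1, -0.70 to 0.40 for Cyp4g1, -0.34 to 0.040 for Cyp305a1, -0.17 to 0.074 for Cyp6a22 and -0.36 to 0.00333 for Cyp12d1-d. Cyp6v1 was also at -0.00219 after quantile normalization. The cause was not tested.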
